A study of Mus musculus with 12 samples.

Results

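The BCL2 family apoptosis regulators examined here were 10 genes, Bcl2, Bcl2l1, Mcl1, Bax, Bak1, Bid, Bcl2l11, Bbc3, Pmaip1 and Bmf. The genes were chosen by name, and their probes were found through the accessions on the array, each non-control probe that matched being described apart. They are 10 of the 15980 genes that could be named on the array, and were represented by 16 of its 41174 probes. A further probe of Bcl2 and 1 of Bcl2l11 are outside the 16 and all counts and tests. They were found only through the annotation of the study's list of responding genes. Bcl2l1 had 3 probes, Bcl2, Mcl1, Bak1 and Bmf had 2 each, and the other 5 genes had 1.

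Expression was measured in TM3 cells, mouse Leydig cells grown as a continuous line and established from prepubertal testis, with and without methoxyacetic acid (MAA), to which the body converts a glycol ether solvent. The 6 conditions combined a concentration of 5 mM or 1 mM with an exposure of 3, 8 or 24 h, and each was compared with untreated TM3 cells kept in medium alone for the same time. Each condition was measured on 2 two-colour Agilent arrays with exchanged dyes, 12 arrays in all, and each RNA sample on an array was a pool of 3 cultures. The unit of replication was therefore the pool, and p-values measure the spread between pools and arrays of 1 cell line only. The 2 arrays of a condition differ in dye orientation, for which the main model had no term, so this spread includes any dye effect. Arrays of 5 mM and 1 mM MAA at 1 time have the same kind of control, and whether those were the same control pools is not given in the sources used here. The 2 arrays of a condition lay on different slides, so that the value of each array given below is also the value within a slide.

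The proteins of the BCL2 family decide whether the outer membrane of the mitochondrion is opened during apoptosis. Antiapoptotic members hold the pore-forming effectors BAX and BAK1 in check, and the BH3-only proteins, which are produced or activated under stress, bind the antiapoptotic members or activate the effectors directly. In the testis this balance is best known for its part in the removal of germ cells, and the same genes are expressed in somatic cells such as the Leydig cell.

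Values are log2 ratios of MAA over control, so that 1 is a doubling, and n = 2 arrays for each condition. A probe was called when the unadjusted limma p was under 0.005 and the change exceeded 2-fold (5 mM) or 1.5-fold (1 mM), and the Benjamini-Hochberg adjusted p over all probes is given beside it. All 16 probes were well above background in the control channel on 12 of 12 arrays, and none was saturated. In the MAA channel the exception was 1 Bmf probe, well above background on 11 of 12. On an array, between 61.5% and 70.4% of all probes were well above background in the control channel. The log2 ratios of the paired arrays correlated over all probes between 0.50 and 0.64 at 5 mM, but at -0.13, 0.13 and 0.31 at 1 mM for 3, 8 and 24 h. Over bright probes alone the correlations were 0.73 to 0.86 at 5 mM and 0.30, 0.46 and 0.74 at 1 mM. Of 9 Leydig cell markers, Star, Cyp17a1 and Insl3 were well above background in the control channel on all 12 arrays, whereas Cyp11a1, Hsd3b1, Hsd3b6 and Lhcgr were above it on none, Hsd17b3 on 1 and Nr5a1 on 8. Of the 5 Sertoli cell markers, Sox9 was above it on all 12 arrays, Gata1 on 6 and Amh, Fshr and Dhh on 2 each. Of the 4 germ cell markers, Ddx4 and Prm1 were above it on all 12, Sycp3 on 5 and Dazl on 1. Col1a1 and Pdgfra of the stroma were above it on all 12, and Thy1, the macrophage marker Adgre1 (Emr1) and the endothelial markers Pecam1 and Cdh5 on none; the part of these markers in the results was not tested.

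Of the 16 probes, 4 were called in at least 1 condition, and they belonged to 4 genes. Bcl2, which opposes apoptosis, and Pmaip1 (Noxa), a BH3-only gene that favours it, rose. The BH3-only genes Bcl2l11 (Bim) and Bmf fell. No probe was called up in 1 condition and down in another. At 5 mM MAA, 2 member probes were called up and 0 down at 3 h, where 3.76% of all probes were called (2.02% up and 1.74% down). At 8 h, 2 were called up and 1 down (5.55% of all probes, 3.06% up and 2.49% down), and at 24 h 1 up and 0 down (5.62%, 3.85% up and 1.77% down). At 1 mM, 1 was called up and 0 down at 3 h (1.95%, 1.32% up and 0.627% down), 2 up and 0 down at 8 h (2.37%, 1.72% up and 0.656% down) and 1 up and 1 down at 24 h (4.68%, 3.26% up and 1.41% down). In bulk RNA, a change in the share of a kind of cell and a change in RNA per cell cannot be told apart.

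The members moved in both directions. In order of time, the median log2 ratio of the 16 probes at 5 mM MAA was 0.05, -0.00 and 0.16, against -0.10, -0.04 and 0.03 for all probes. The medians at 1 mM were -0.02, 0.04 and -0.01, against 0.02, 0.02 and -0.07. Regardless of sign, the median size of the log2 ratio at 5 mM was 0.20, 0.23 and 0.23 for the members and 0.18, 0.23 and 0.24 for all probes. At 1 mM it was 0.19, 0.21 and 0.07, against 0.11, 0.13 and 0.16. Centring each array on its median moved the medians at 3 h of 5 mM MAA to 0.16 for the members and 0.01 for all probes. At an adjusted p under 0.05 and any fold, 5, 7 and 7 of the 16 probes differed from control at 5 mM, compared with 24%, 30.4% and 30.4% of all probes. The corresponding counts at 1 mM were 1, 3 and 3, compared with 4.62%, 5.53% and 11.3%. All 16 member probes were above background in the control channel, which was not so for all probes. The shares of all probes, here and for the calls, are therefore not matched to the members for signal. Counts and values below follow the same order, 3, 8 and 24 h, where no time is named. The plot of all 16 probes shows which values were called; uncalled values such as -0.59 for Bak1 at 8 h of 5 mM MAA exceeded the -0.51 of Bcl2l11, a gene called in another condition.

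**Figure D1:**
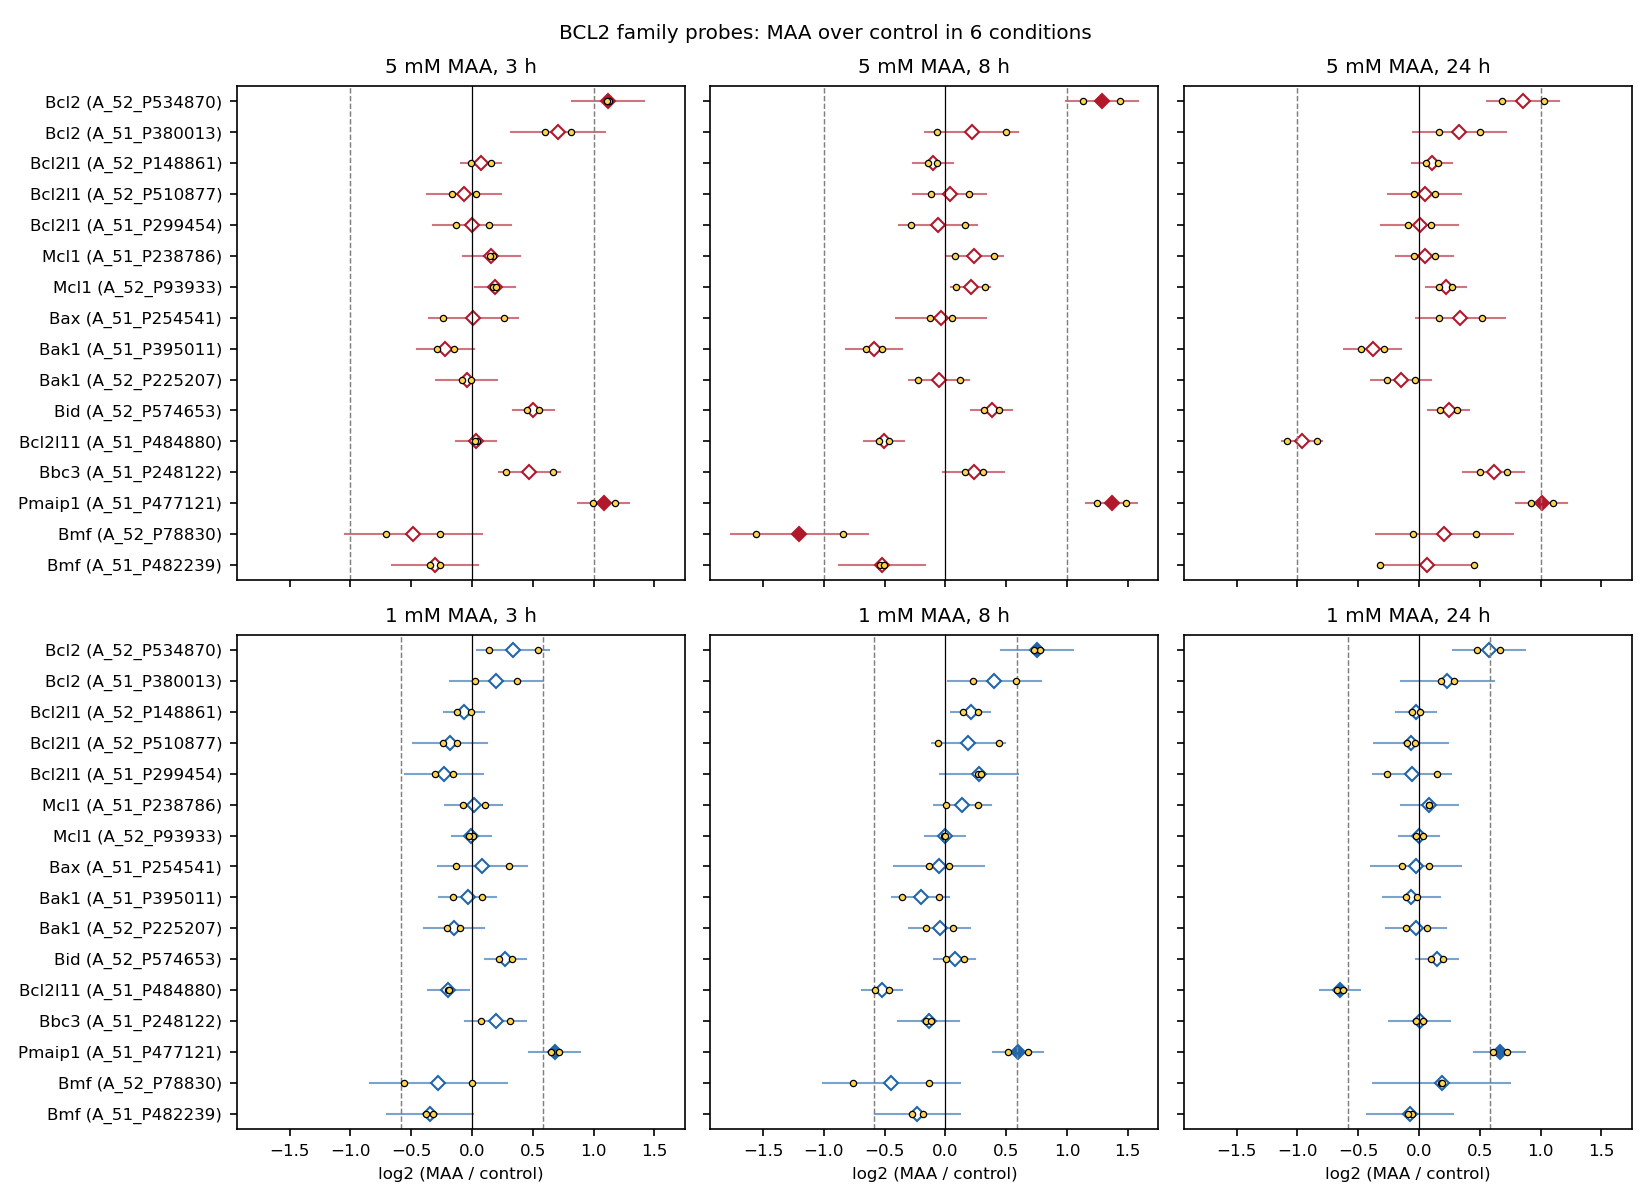
Log2 ratio of MAA over control (x axis) for each of the 16 BCL2 family probes (y axis) in the 6 conditions. Yellow points are the 2 arrays, diamonds their mean (filled when called) with the 95% confidence interval, and dashed lines the fold threshold; Pmaip1 is filled in all 6 panels, and the Bcl2l1, Mcl1, Bax, Bak1, Bid and Bbc3 probes in none.

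Among the antiapoptotic genes, Bcl2 was the responder. The protein binds and restrains BH3-only proteins and effectors at the mitochondrion and endoplasmic reticulum. Its upstream region is shown because this was the called antiapoptotic member, with those of the BH3-only genes Bcl2l11 and Bmf for comparison. The 250 bases before the outermost annotated start are given 5′ to 3′ along the gene from the RefSeq promoters of build GRCm38.p6, for Bcl2 at chr1:106714291-106714540 on the minus strand, for Bcl2l11 at chr2:128125788-128126037 on the plus strand and for Bmf at chr2:118549687-118549936 on the minus strand. Capitals mark GGGCGG, the GC box bound by SP1, on either strand.
Bcl2: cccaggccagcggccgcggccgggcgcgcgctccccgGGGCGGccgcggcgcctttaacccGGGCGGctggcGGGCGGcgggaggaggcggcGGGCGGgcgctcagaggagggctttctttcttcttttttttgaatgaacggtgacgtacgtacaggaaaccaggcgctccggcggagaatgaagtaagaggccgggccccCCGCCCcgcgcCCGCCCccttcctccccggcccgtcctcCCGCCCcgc
Bcl2l11: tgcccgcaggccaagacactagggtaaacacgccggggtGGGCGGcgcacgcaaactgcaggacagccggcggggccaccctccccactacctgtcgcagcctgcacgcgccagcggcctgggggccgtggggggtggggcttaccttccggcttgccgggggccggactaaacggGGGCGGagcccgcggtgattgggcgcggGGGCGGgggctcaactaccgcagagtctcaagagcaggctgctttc
Bmf: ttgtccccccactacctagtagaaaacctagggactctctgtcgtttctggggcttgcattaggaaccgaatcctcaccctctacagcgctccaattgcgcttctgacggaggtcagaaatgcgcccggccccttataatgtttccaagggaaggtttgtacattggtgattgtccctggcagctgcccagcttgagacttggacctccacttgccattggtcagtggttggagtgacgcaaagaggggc

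The Bcl2 region held 7 GC boxes and that of Bcl2l11 held 3, whereas the Bmf region held none. Over all 32851 promoters of the table, the same 250 bases held a GC box in 32.7% and 3 or more in 8.47%. The table had 16 promoters for 9 members, of which 9 held a GC box; Pmaip1 was not matched. The EGR letters GCGGGGGCG were found in 2 of the 16, 1 of Bcl2l11 and 1 of Bbc3, against 2.57% of all promoters, and in both they overlapped a GC box. The cyclic AMP response element TGACGTCA (1.55% of all promoters) and the TATA box TATAAA (12.4%) were found in none. Both strands were searched for each. Bcl2, called up, and Bcl2l11, called down, thus had 74.8% and 72% G and C in these windows, against a median of 52.4% over all promoters. Promoters of members that were not called ran from 47.6% with 0 GC boxes (Bcl2l1) to 81.6% with 7 (Bbc3). A match describes letters only.

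For the Bcl2 probe spotted 10 times (A_52_P534870), the arrays gave log2 ratios of 1.13 and 1.11 at 3 h, 1.44 and 1.13 at 8 h and 1.03 and 0.68 at 24 h of 5 mM MAA. The means were 1.12, 1.29 and 0.86 (standard error 0.128), and the limma adjusted p-values were 6.64e-04, 2.37e-04 and 0.00183. Bcl2 rose 2.17-fold at 3 h and 2.44-fold at 8 h, while the 1.81-fold value at 24 h was short of the fold threshold. At 1 mM the arrays gave 0.54 and 0.14 at 3 h, 0.78 and 0.73 at 8 h and 0.67 and 0.48 at 24 h. The mean of 0.75 at 8 h, 1.69-fold, was called (adjusted p = 0.0188), and those of 0.34 and 0.57 at 3 h and 24 h were not (adjusted p = 0.225 and 0.029). All 12 arrays were above 0 for this probe. Without either of the 8 h arrays at 1 mM that call was lost, with values of 0.73 and 0.78 on the array left. Over the repeated spots of an array the standard deviation of the log2 ratio was between 0.0134 and 0.0361.

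The other Bcl2 probe (A_51_P380013), designed on another transcript record of the gene, was called in no condition. Its mean log2 ratios at 5 mM were 0.71, 0.22 and 0.33 (standard error 0.164, adjusted p = 0.0168, 0.425 and 0.186) and 0.20, 0.40 and 0.23 at 1 mM. At 8 h of 5 mM MAA the arrays differed in sign, -0.07 and 0.50. The control signal of this probe was between 53.9 and 248. An additional probe, A_52_P438280, had no match in the gene table used here. It was assigned to Bcl2 in the annotation given with the study's list of responding genes. A probe that did not respond could not be found this way, so the values of A_52_P438280 are a description only. At 5 mM they were 2.07, 0.33 and 0.77, and at 1 mM 0.83, 0.49 and 0.17, with a control signal of 43.4 to 60.2 at 3 h and of 153 to 291 at 8 h. Of the counted probes of the gene, A_52_P534870 had its highest mean ratio at 5 mM at 8 h and A_51_P380013 at 3 h.

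Bcl2l1 encodes BCL-XL, a close relative of BCL2 with the same action. None of its 3 probes was called or had an adjusted p under 0.05 in any condition. Over the 36 array values of the 3 probes the log2 ratios were between -0.30 and 0.44, and 16 were above 0. For the probe spotted 10 times (A_52_P148861) the 95% confidence intervals at 5 mM were -0.09 to 0.24 at 3 h, -0.27 to 0.06 at 8 h and -0.05 to 0.27 at 24 h. The repeated spots of this probe had a standard deviation between 0.013 and 0.0422.

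Mcl1, a short-lived antiapoptotic protein with high transcript turnover, had 2 probes with control signals of 4672 or more, and neither was called. The mean log2 ratios of A_52_P93933 at 5 mM were 0.19, 0.21 and 0.22 (standard error 0.0704, adjusted p = 0.105, 0.0633 and 0.0491), with all 6 arrays above 0. The other probe gave 0.16, 0.24 and 0.05 (adjusted p = 0.363, 0.13 and 0.76). The means of both probes at 1 mM were between -0.01 and 0.14, and the arrays between -0.08 and 0.27.

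The effectors Bax and Bak1, whose products form the pore in the mitochondrial membrane, were called in no condition. Bax, spotted 10 times, had log2 ratios of -0.24 and 0.27 on the arrays at 3 h, -0.13 and 0.06 at 8 h and 0.17 and 0.52 at 24 h of 5 mM MAA. The 24 h mean of 0.34 (95% confidence interval -0.03 to 0.71) had an adjusted p of 0.16, and at 1 mM the means were 0.09, -0.05 and -0.03. In every condition the replicate 2 array was above the replicate 1 array, and these differ in dye orientation. The arrays of Bax at 3 h and 8 h lay on both sides of 0.

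Bak1 was below control at 5 mM by 1 of its probes. A_51_P395011 gave -0.29 and -0.15 at 3 h, -0.65 and -0.52 at 8 h and -0.48 and -0.28 at 24 h, with means of -0.22, -0.59 and -0.38 (standard error 0.1, adjusted p = 0.178, 0.00322 and 0.0232). All 6 arrays were below 0 and the 8 h value was short of the fold threshold. The other probe, A_52_P225207, gave -0.04, -0.05 and -0.15 (adjusted p = 0.834, 0.864 and 0.377). The probes disagreed most at 8 h, where the 95% confidence intervals were -0.82 to -0.35 and -0.30 to 0.19. At 1 mM the means of both probes were between -0.20 and -0.02, with no adjusted p under 0.05.

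The BH3-only genes diverged. Of 5 genes, Pmaip1 rose, Bcl2l11 and Bmf fell, and Bid and Bbc3 were above control at 5 mM without reaching the fold threshold. Pmaip1 encodes NOXA, which binds MCL1 and releases the proteins it holds. The arrays gave log2 ratios of 0.99 and 1.18 at 3 h, 1.49 and 1.25 at 8 h and 1.10 and 0.92 at 24 h of 5 mM MAA. At 1 mM they gave 0.65 and 0.71 at 3 h, 0.68 and 0.51 at 8 h and 0.73 and 0.61 at 24 h. The lowest of the 6 arrays at 5 mM, 0.92, was above the highest of the 6 at 1 mM, 0.73.

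Pmaip1 was the member called in 6 of 6 conditions. The means at 5 mM were 1.09, 1.37 and 1.01 (standard error 0.0899, adjusted p = 1.63e-04, 4.24e-05 and 1.72e-04), or 2.12-fold, 2.58-fold and 2.01-fold. At 1 mM they were 0.68, 0.60 and 0.67 (adjusted p = 0.00828, 0.0125 and 0.00464), or 1.61-fold, 1.51-fold and 1.59-fold. Several of these values lie close to the fold threshold. The call at 5 mM for 24 h was lost with each array centred on its median (0.998) and without replicate 1 (0.92), and that at 5 mM for 3 h was lost without replicate 2 (0.99). At 1 mM the calls at 3 h and 8 h were lost with normexp and loess (0.54 and 0.57), and that at 8 h without replicate 1 (0.51).

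The genes whose 12 log2 ratios were most like those of Pmaip1, among 10582 genes compared, were Kif1b (Pearson r = 0.97), Dyrk3 (0.96), Mindy3 (0.96), Syap1 (0.95) and Kif2a (0.95). The 12 arrays share dye orientations, slides and the kind of control, and the likeness is a description. Dyrk3, a protein kinase, had mean log2 ratios of 1.25, 1.44 and 1.21 at 5 mM, whereas those at 1 mM were 0.53, 0.38 and 0.46.

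Bcl2l11 encodes BIM, a BH3-only protein that binds all the antiapoptotic members and can activate BAX. Its log2 ratios on the arrays were 0.04 and 0.03 at 3 h, -0.55 and -0.47 at 8 h and -1.08 and -0.84 at 24 h of 5 mM MAA. At 1 mM they were -0.20 and -0.19 at 3 h, -0.58 and -0.46 at 8 h and -0.68 and -0.62 at 24 h. The 2 arrays lay close together, and from 8 h on all 8 were below 0.

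The called value of Bcl2l11 was that at 24 h of 1 mM MAA, with a mean of -0.65 (standard error 0.0717, adjusted p = 0.00215), or 1.57-fold lower. At 24 h of 5 mM MAA the mean was -0.96 (adjusted p = 8.28e-05), and this 1.95-fold lower value was larger but did not exceed the 2-fold threshold set for 5 mM. At 8 h the means were -0.51 at 5 mM and -0.52 at 1 mM (adjusted p = 0.00131 and 0.00942). At 3 h they were 0.03 and -0.19 (adjusted p = 0.823 and 0.214). The call at 1 mM was lost with normexp and loess, where the value was -0.42. A further probe, A_52_P348214, was assigned to Bcl2l11 by the annotation of the study's list of responding genes. It too could be found only by being on that list, and its values are a description. They were -0.59, -1.07 and -0.74 at 5 mM, and at 1 mM -0.46, -0.44 and -0.66. This probe was below control already at 3 h and had its lowest value at 5 mM at 8 h, unlike A_51_P484880, whose lowest value was at 24 h.

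Bmf encodes a BH3-only protein linked to the actin cytoskeleton and released on cell detachment. The probe A_52_P78830 gave log2 ratios of -0.26 and -0.70 at 3 h, -0.85 and -1.56 at 8 h and 0.47 and -0.05 at 24 h of 5 mM MAA. The 8 h mean of -1.20 (standard error 0.242, adjusted p = 0.00698), 2.30-fold lower, was called, and those of -0.48 and 0.21 at 3 h and 24 h were not (adjusted p = 0.224 and 0.637). At 8 h both arrays were below 0, but 1 of the 2 was not well above background in the MAA channel, at a signal of 21.9 against 64.6 in the control channel. The value was -0.50 with normexp and loess and -0.85 without replicate 2 of the 8 h arrays, and the call was lost in both.

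At 1 mM the means of this Bmf probe were -0.28, -0.45 and 0.19, with no adjusted p under 0.05. The other probe, A_51_P482239, gave -0.31, -0.52 and 0.07 at 5 mM (standard error 0.151, adjusted p = 0.218, 0.0341 and 0.767) and was called in no condition. At 5 mM both probes had their lowest mean at 8 h. Both were dim, with control signals of 29.1 to 74.7 and of 15.9 to 52.5, where the median signal of all probes on an array was between 53 and 126.

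Bid, which is cleaved by caspase 8 and carries the death receptor signal to the mitochondrion, was above control on all 12 arrays. At 5 mM the log2 ratios were 0.46 and 0.55 at 3 h, 0.32 and 0.44 at 8 h and 0.17 and 0.32 at 24 h. The means of 0.50, 0.38 and 0.24 (standard error 0.0731) had adjusted p-values of 0.00199, 0.0058 and 0.0391, and the largest was 1.42-fold. At 1 mM the means were 0.27, 0.08 and 0.15, with adjusted p-values of 0.0906, 0.718 and 0.262.

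Bbc3 encodes PUMA, which like BIM binds all the antiapoptotic members. At 5 mM the log2 ratios were 0.28 and 0.66 at 3 h, 0.31 and 0.16 at 8 h and 0.50 and 0.73 at 24 h, all above 0. The means were 0.47, 0.23 and 0.61 (standard error 0.108, adjusted p = 0.0156, 0.163 and 0.00401), and the 24 h value was 1.53-fold. At 1 mM they were 0.19, -0.14 and 0.01, with no adjusted p under 0.05. Bbc3 had the same sign as Bid and Pmaip1 at 5 mM.

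**Figure D2:**
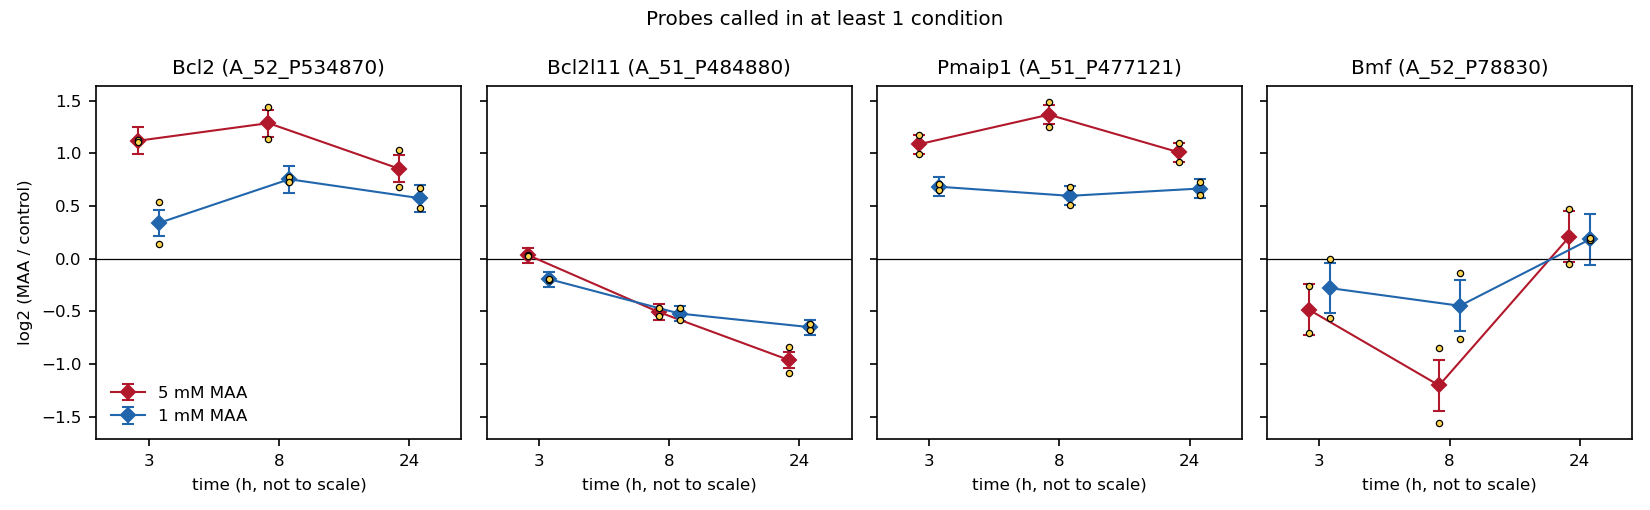
Log2 ratio of MAA over control (y axis) at 3, 8 and 24 h (x axis, not to scale) for the 4 probes called in at least 1 condition, at 5 mM (red) and 1 mM MAA (blue). Diamonds are means with the standard error and yellow points the 2 arrays; Bcl2l11 went from 0.03 to -0.96 between 3 h and 24 h of 5 mM MAA, and Bmf from -1.20 at 8 h to 0.21 at 24 h.

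Whether the response differed between times was tested as a contrast within the same limma fit, at an adjusted p under 0.05 over all probes. From 3 h to 8 h of 5 mM MAA, 1 of 16 member probes differed (5.1% of all probes), from 8 h to 24 h 2 of 16 (8.91%) and from 3 h to 24 h 1 of 16 (15.8%). Bcl2l11 differed in all 3 contrasts, by -0.54 from 3 h to 8 h (adjusted p = 0.0287), by -0.46 from 8 h to 24 h (0.0343) and by -0.995 from 3 h to 24 h (95% confidence interval -1.23 to -0.76, 0.00123). The further probe A_52_P348214, outside the tests, had -0.59 at 3 h, -1.07 at 8 h and -0.74 at 24 h. It was below control already at 3 h and went the other way between 8 h and 24 h. For A_51_P484880, the only Bcl2l11 probe tested, the difference between 3 h and 24 h passed under all 20 alternatives. That between 3 h and 8 h was lost under 10 of 20 and that between 8 h and 24 h under 15 of 20, which included leaving out any 1 of the 12 arrays for the latter, and both were lost with the arrays of 5 mM alone (adjusted p = 0.193 and 0.183). Bmf, by the probe A_52_P78830, differed by 1.41 from 8 h to 24 h (95% confidence interval 0.62 to 2.21, adjusted p = 0.0448), and this was lost under 14 of 20 alternatives, which included leaving out any 1 of the 12 arrays. At 8 h 1 of the 2 arrays behind it was not well above background in the MAA channel, and with normexp and loess the difference was 0.61 (adjusted p = 0.00441). The second Bmf probe differed by 0.59 over the same interval (adjusted p = 0.153).

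The time courses of Bcl2 and Pmaip1 at 5 mM were not resolved. From 8 h to 24 h Bcl2 (A_52_P534870) differed by -0.43 (95% confidence interval -0.85 to -0.01, adjusted p = 0.216) and Pmaip1 by -0.36 (-0.65 to -0.06, adjusted p = 0.145). With the replicate number as a block, the probes past the test numbered 4, 5 and 3 in the contrasts of 8 h with 3 h, 24 h with 8 h and 24 h with 3 h. Bcl2l11 was among them in all 3. Bcl2 was among them by A_51_P380013 for 8 h with 3 h (-0.49, adjusted p = 0.0363) and by A_52_P534870 for 24 h with 8 h (-0.43, adjusted p = 0.0451). The others were Bak1 (A_51_P395011) and Bmf (A_52_P78830) for 8 h with 3 h, and Bid and that Bmf probe for 24 h with 3 h. For 24 h with 8 h they were Bax, Bcl2l1 (A_52_P148861) and the same Bmf probe. Bax differed there by 0.38 (adjusted p = 0.0489), and by 0.53 with the slide as a block (adjusted p = 0.0235).

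The concentrations were compared at matched times. Of the 16 probes, 0 differed at 3 h by limma (3.4% of all probes), with 2 at an unadjusted p under 0.05, 1 at 8 h (10.1%) and 0 at 24 h (8.41%), with 3 at an unadjusted p under 0.05. Pmaip1 at 8 h was the 1 past the test, with 1.37 at 5 mM and 0.60 at 1 mM, a difference of 0.77 (95% confidence interval 0.47 to 1.07, adjusted p = 0.0111). It was lost with each array centred on its median and without replicate 1 of the 5 mM or replicate 2 of the 1 mM arrays at 8 h. At 3 h and 24 h the difference in Pmaip1 was 0.40 and 0.34 (adjusted p = 0.159 and 0.164).

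Bcl2 (A_52_P534870) at 3 h had the largest difference of the members, 0.78 (95% confidence interval 0.36 to 1.20), with an adjusted p of 0.0667. It passed with the replicate block (adjusted p = 0.0121), the slide as a block (0.0489), without dim probes (0.0207) and with normexp and loess (0.0065). Bbc3 at 24 h differed by 0.61 (0.25 to 0.97) with an adjusted p of 0.0524, and passed under the same 4 settings (adjusted p = 0.0168 to 0.0309). Bcl2l1 (A_52_P148861) at 8 h differed by -0.31 (-0.54 to -0.08, adjusted p = 0.102), and also passed under these 4 settings (adjusted p = 0.0109 to 0.0416). The other Bcl2l1 probes passed under none of them. Bcl2l11 at 8 h had -0.51 at 5 mM and -0.52 at 1 mM, with a difference of 0.01 and an interval of -0.22 to 0.25. At 24 h its difference was -0.31 (-0.55 to -0.08, adjusted p = 0.115). The counts depend on the model. With the replicate block 3 probes passed at 3 h, both of Bcl2 and Bid, and 3 at 24 h, Bbc3, Bcl2l11 and Bak1 (A_51_P395011). At 8 h the count was 6 with the replicate block, 5 with the slide as a block and 4 with normexp and loess or without dim probes, 2 with the deposited log ratios and 0 with each array centred on its median.

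**Figure D3:**
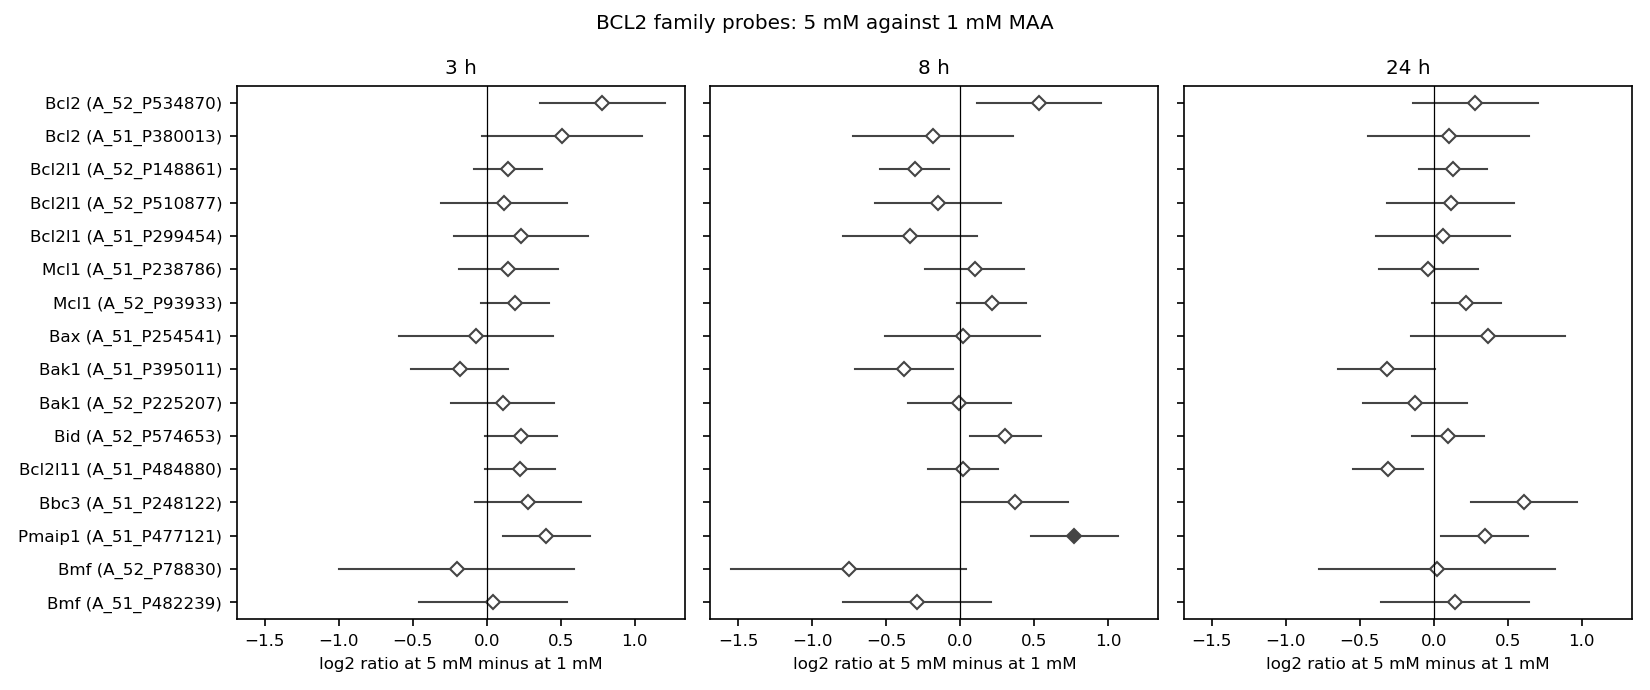
Difference in log2 ratio between 5 mM and 1 mM MAA (x axis) for the 16 BCL2 family probes (y axis) at 3, 8 and 24 h. Diamonds are estimates with the 95% confidence interval, filled when the adjusted p was under 0.05, which holds for Pmaip1 at 8 h (0.77).

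A ratio can move through the treated or the control cells, so the signals of both channels were also set on a common scale across the arrays as log2 levels, each compared within 1 probe only. In the untreated cells Pmaip1 went from a mean log2 level of 10.60 at 3 h to 9.29 at 8 h and 10.88 at 24 h (4 arrays each). The ranges of the arrays were 10.45 to 10.68, 9.15 to 9.43 and 10.80 to 10.94, and did not overlap. With 5 mM MAA the levels were 11.73, 10.70 and 11.88, and with 1 mM 11.25, 9.84 and 11.55. The largest mean ratio at 5 mM, 1.37 at 8 h, thus came with the lowest level in treated and untreated cells alike.

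Bcl2l11 in untreated cells had levels of 8.88, 9.02 and 8.52 at 3, 8 and 24 h, again without overlap. With 5 mM MAA the levels were 8.90, 8.52 and 7.51. Between 3 h and 24 h the untreated level thus differed by -0.36, in the same direction as the ratio. Bcl2 (A_52_P534870) had levels of 10.15, 9.82 and 10.67 in untreated cells and of 11.27, 11.11 and 11.53 with 5 mM MAA.

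Bax, which was called in no condition, had a lower level in untreated cells at 24 h (10.79) than at 3 h (11.50) and 8 h (11.69). With 5 mM MAA its level at 24 h was 11.18, and with 1 mM 10.72. Bid went from 12.05 to 11.45 and 11.30, and Bbc3 from 10.57 to 10.21 and 9.82. Bmf had levels of 6.18, 5.58 and 5.09 by the probe A_52_P78830, so that its control level differed by -0.48 between 8 h and 24 h, while its levels with 5 mM MAA were 4.39 at 8 h and 5.38 at 24 h.

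Between 3 h and 8 h the control levels of 10 of the 16 probes did not overlap (36.5% of all probes), 3 higher and 7 lower at 8 h. Between 8 h and 24 h this held for 10 (38%), 4 higher and 6 lower, and between 3 h and 24 h for 12 (46.2%), 5 higher and 7 lower. All 16 member probes were above background, which was not so for all probes, and the time in culture and the arrays of that time cannot be told apart.

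**Figure D4:**
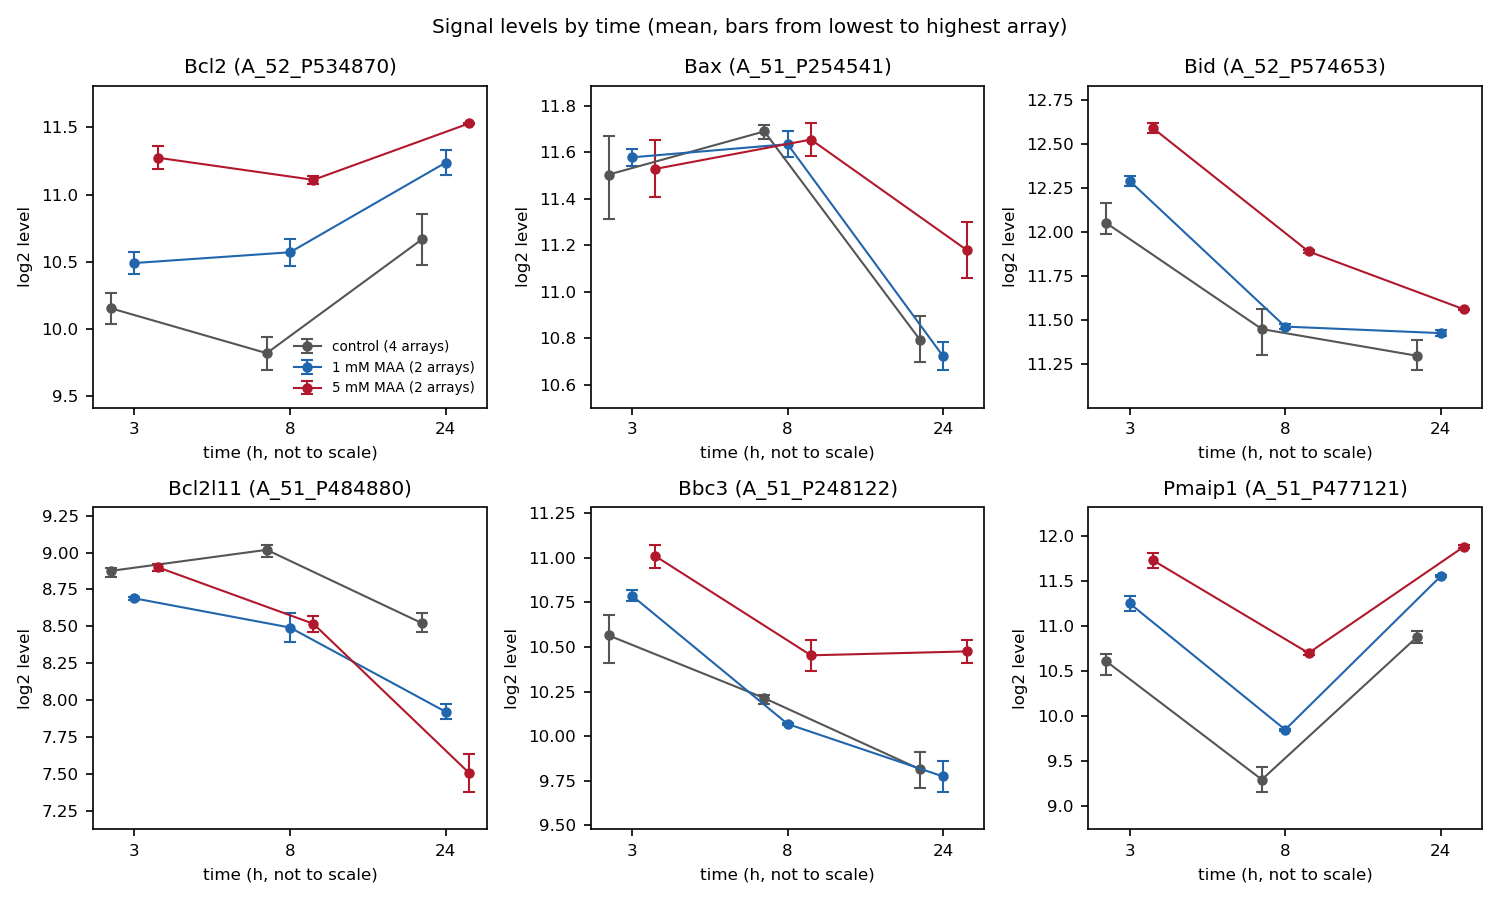
Log2 signal level (y axis) of 6 BCL2 family probes at 3, 8 and 24 h (x axis, not to scale) in control (grey, 4 arrays), 1 mM (blue) and 5 mM MAA cells (red, 2 arrays each). Points are means and bars run from the lowest to the highest array; the Pmaip1 control level was 10.60, 9.29 and 10.88, with the treated levels above it at each time.

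Other genes of the apoptosis pathway were counted from a list of 52 genes, of which 49 had a probe, each taken by its brightest probe. The list was not filtered on signal. Naip1, Fasl and Tnf, among others, were well above background in neither channel at 3 h of 5 mM MAA. At 5 mM MAA the calls were 0 up and 1 down at 3 h, 2 up and 1 down at 8 h and 1 up and 3 down at 24 h, or 2.04%, 6.12% and 8.16% of the list, against 3.76%, 5.55% and 5.62% of all probes. At 1 mM 0 genes were called by limma at 3 h or 8 h, with 9 at an unadjusted p under 0.05 at each, and 2 up and 1 down at 24 h (6.12%), against 1.95%, 2.37% and 4.68% of all probes. In order of time, the list had median log2 ratios of -0.04, 0.02 and -0.08 at 5 mM, against -0.10, -0.04 and 0.03 for all probes, while those at 1 mM were 0.00, -0.01 and -0.05, against 0.02, 0.02 and -0.07.

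Among the other BCL2 family genes, 13 of 15 had a probe. At 3 h of 5 mM MAA, Bcl2a1b, Bcl2a1c, Bcl2l10, Bik and Hrk were well above background in neither channel on either array. Their lack of a call at that time therefore says little. Bad, a BH3-only gene regulated by survival signalling, was the 1 of the 13 called. It fell at 24 h, with a log2 ratio of -1.46 at 5 mM (standard error 0.137, adjusted p = 2.15e-04) and of -0.65 at 1 mM (adjusted p = 0.025), and the 5 mM value was -0.48 and lost its call with normexp and loess. Of the inhibitor of apoptosis genes, Birc3 (cIAP2) fell at all 3 times of 5 mM MAA, with -1.32, -1.35 and -1.10.

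In the death receptor pathway, Tnfsf10 (the ligand TRAIL) rose at 24 h, with 2.07 at 5 mM and 1.48 at 1 mM, Fas, a death receptor, rose at 8 h of 5 mM MAA (1.14), and Cflar, the inhibitor FLIP of caspase 8, fell at 24 h of 5 mM MAA (-1.28, adjusted p = 0.0135). The Tnfsf10 value at 5 mM was 0.71 with normexp and loess, where its call was lost, as it was without replicate 1 of those arrays, and the Cflar call was lost under 8 of 21 alternatives. Of the regulators of BH3-only genes, Jun, a subunit of the AP-1 factor, rose at 8 h of 5 mM MAA (1.16, adjusted p = 7.3e-05) and at 24 h of 1 mM (0.89).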

How the data were processed

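RNA from MAA-treated and untreated TM3 cells was hybridised to two-colour Agilent mouse arrays, 12 arrays on 3 slides of 4, with 2 arrays for each of 6 conditions and the dyes exchanged between them. The authors deposited the scanner output with intensities of both channels that Agilent Feature Extraction 9.5.3.1 had background-subtracted, detrended and dye-normalized within each array. They also deposited a value table of log10 ratios, given to 2 decimals and directed as MAA over control, which was used as an alternative only. Its scale was found by setting it against the scanner values.

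Control spots and spots flagged as outliers were left out (124 to 208 flagged per array), and spots that repeat a probe were reduced to their mean, leaving 41174 probes. The log2 ratio of the processed intensities was turned to MAA over control on every array. Ratios were fitted over all 12 arrays with limma 3.58.1 in R 4.3.3, with 1 coefficient for each condition, 6 residual and 1.52 prior degrees of freedom. A call needed the p and fold thresholds of the study's methods, with limma in place of their Rosetta error model, which was not run here. Differences between conditions were contrasts of this fit with Benjamini-Hochberg adjustment over all probes. Log2 levels were channel signals after Aquantile normalization between arrays. The depth of an array is its signal over background, and the number of arrays limits the precision, with a median standard error of 0.15 for a log2 ratio.

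The name column of the scanner output held accessions, so that 0 probes equalled a member symbol, and members were matched through accessions to a RefSeq gene table (GRCm38.p6), which named 22072 probes, with 10 more named by the column itself. All probes of the 10 members were described. Other pathway genes were taken from a list of 52, each by its brightest probe, and those named were called in at least 1 condition; the genes most like Pmaip1 were the 5 with the highest correlation over the arrays. The members and lists were chosen with earlier results of these data known. Promoters came from RefSeq and were searched on both strands in Python 3.11.15. The alternatives were normexp (offset 50) with loess, the deposited log ratios, centring, a filter on dim probes, outlier spots kept, the replicate number or the slide as a block, an adjusted p for the call, the arrays of 1 concentration, and each array left out. In data simulated for 5 mM at 3 h over 41174 probes, 92% of 100 probes changed 4-fold were called, and 39 unchanged ones. The test of a difference between conditions was less sensitive there, detecting 60% of simulated 4-fold differences. A 4-fold change is larger than any mean change of the counted member probes, so these shares do not give the sensitivity for changes of their size. The simulated noise was also independent between arrays, whereas deviations of same-numbered real arrays were correlated.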

Additional observations from a re-analysis of the deposited data

Results flagged for a closer look

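The response of 3 genes, by a single probe of each, differed between conditions by the test of the difference itself, a limma contrast adjusted over all probes. The log2 ratio of Bcl2l11 at 5 mM MAA differed by -0.54 between 3 h and 8 h (adjusted p = 0.0287), by -0.46 between 8 h and 24 h (0.0343) and by -0.995 between 3 h and 24 h (0.00123). The last of these passed under all 20 alternatives, while the first was lost under 10 and the second under 15 of 20. All are differences of A_51_P484880. The further Bcl2l11 probe A_52_P348214, outside the tests, had -0.59 at 3 h, -1.07 at 8 h and -0.74 at 24 h of 5 mM MAA. The log2 ratio of Bmf (A_52_P78830) differed by 1.41 between 8 h and 24 h of 5 mM MAA (adjusted p = 0.0448). It was lost under 14 of 20 alternatives, was 0.61 with normexp and loess, and rests on an 8 h value with 1 of 2 arrays not well above background in the MAA channel. The second Bmf probe (A_51_P482239) differed by 0.59 over the same interval and did not pass (adjusted p = 0.153). The log2 ratio of Pmaip1 at 8 h was higher at 5 mM than at 1 mM by 0.77 (adjusted p = 0.0111), and this was lost under 3 of 19 alternatives.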

How the results depend on the processing

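The 22 single results examined were those already called or past the test in the main fit. A change of sign was therefore unlikely from the start, and none occurred. With normexp and loess the called member probes at 1 mM numbered 0, 1 and 1 in order of time, and with each array centred on its median 0 at 24 h of 5 mM. With any single array omitted, there were 1 to 2, 2 to 3 and 0 to 3 calls at 5 mM in order of time, and 1 to 1, 0 to 2 and 2 to 2 at 1 mM. The 5 mM calls at 24 h were 0 without replicate 1 and 3 (Bcl2, Bcl2l11 and Pmaip1) without replicate 2, and the 1 mM calls at 8 h were 0 without replicate 1 and 1 without replicate 2. The cause was not tested.

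For the differences, leaving out 1 array gave 0 to 1 probes for 8 h minus 3 h, 0 to 1 for 24 h minus 8 h and 1 to 2 for 24 h minus 3 h. For 5 mM minus 1 mM it gave 0 to 0, 0 to 1 and 0 to 1 in order of time. Centring gave 0 for 8 h minus 3 h, 24 h minus 8 h and the concentrations at 8 h, and the arrays of 1 concentration gave 0 for 8 h minus 3 h and 24 h minus 8 h. Normexp and loess gave 1 for 24 h minus 8 h and 1, 4 and 1 for the concentrations in order of time, the filter on dim probes 1, 4 and 2, and the deposited log ratios 2 at 8 h and 1 at 24 h. The slide as a block gave 4 for 24 h minus 8 h, 4 for 24 h minus 3 h and 1, 5 and 1 for the concentrations.

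The replicate number is also the dye orientation. Deviations of same-numbered arrays correlated between 0.075 and 0.51 over 15 pairs of conditions, over 0.1 in 14. Over bright probes alone these correlations were between 0.039 and 0.77. Same-numbered arrays thus deviated together in most pairs of conditions and share a dye orientation, but nothing says that they share cultures, and the main model has no block because pairing was accepted only with all 15 over 0.1. With the replicate block the calls against control at 5 mM numbered 2, 3 and 1, and those at 1 mM 1, 2 and 2, the same counts as without it. The differences numbered 4 for 8 h minus 3 h, 5 for 24 h minus 8 h and 3 for 24 h minus 3 h, and 3, 6 and 3 for the concentrations in order of time.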
